A study of Mus musculus with 11 samples.

Results

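A set of 10 genes of extracellular proteolysis were followed across 11 fetal mouse livers. They are 7 matrix metalloproteinases (*Mmp2*, *Mmp3*, *Mmp8*, *Mmp9*, *Mmp12*, *Mmp13* and *Mmp14*) and 3 tissue inhibitors of metalloproteinases (*Timp1*, *Timp2* and *Timp3*). The rule gives the 10 genes by name and sets no threshold on a measured value, but they were proposed with earlier results of these data known. They were found by their Ensembl identifiers among the 52636 genes of the count tables. The tables hold 26 *Mmp* and *Timp* genes annotated as protein-coding.

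Total RNA was isolated from single livers of E15.5 embryos without any treatment and sequenced after the libraries were made. The study's methods name a kit for mRNA libraries. WT embryos gave 3 livers. Embryos lacking the TNF receptor TNFR1 (labelled TNFR1KO, here *Tnfr1-/-*) gave 2 livers. Embryos labelled Casp8 MLKL dKO (*Casp8-/- Mlkl-/-*, 3 livers) lacked the protease caspase-8 and MLKL, the protein that ruptures the membrane in necroptosis. Embryos labelled Casp8 TNFR1 dKO (*Casp8-/- Tnfr1-/-*, 3 livers) lacked caspase-8 and TNFR1 but kept MLKL. All were germline knockouts of the whole body on a C57BL/6 N background, so that every cell of a liver carried them. The study asked what happens in embryos without caspase-8 and TNFR1, and the other 3 genotypes serve as their controls.

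Metalloproteinases are zinc-dependent enzymes that are made as inactive proenzymes and, once activated outside the cell or at its surface, cut collagens, elastin, proteoglycans, cytokines and adhesion molecules. TIMPs bind the active site of these enzymes and block it. *Mmp12* encodes macrophage elastase, and *Mmp13* encodes a collagenase that macrophages, chondrocytes and osteoblasts make. *Mmp8* encodes the collagenase of neutrophil granules, and *Mmp9* encodes gelatinase B, another neutrophil granule enzyme. *Mmp14*, *Mmp2* and *Mmp3* are best known from stromal cells: *Mmp14* encodes a metalloproteinase anchored in the membrane, which activates the product of *Mmp2*, gelatinase A, and *Mmp3* encodes a stromelysin.

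*Mmp13* (ENSMUSG00000050578, chr9:7272514-7283331), *Mmp12* (ENSMUSG00000049723, chr9:7344381-7369499), *Mmp3* (ENSMUSG00000043613, chr9:7445822-7455975) and *Mmp8* (ENSMUSG00000005800, chr9:7558456-7568485) lie in this order on the plus strand of GRCm38. All 6 protein-coding genes between the first base of *Mmp13* and the last base of *Mmp8*, a span of 295972 bases, are metalloproteinase genes. The sequence just before the start site is shown for *Mmp13*, *Mmp12* and *Timp1*, which turned out to be higher in all *Casp8-/- Tnfr1-/-* livers than in any other liver, and for *Mmp3*, a gene of the same cluster that was barely detected. Each is 120 bases of GRCm38.p6 from RefSeq, plus strand, 5′ to 3′, and capitals mark the AP-1 site TGANTCA, which reads the same on both strands.
Mmp13 (chr9:7272394-7272513): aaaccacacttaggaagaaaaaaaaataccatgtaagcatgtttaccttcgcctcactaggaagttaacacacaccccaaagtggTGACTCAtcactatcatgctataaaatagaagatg
Mmp12 (chr9:7344261-7344380): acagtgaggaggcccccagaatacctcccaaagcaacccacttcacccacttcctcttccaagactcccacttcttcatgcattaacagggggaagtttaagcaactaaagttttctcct
Mmp3 (chr9:7445702-7445821): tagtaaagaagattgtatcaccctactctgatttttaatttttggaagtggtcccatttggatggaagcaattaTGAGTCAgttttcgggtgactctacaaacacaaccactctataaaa
Timp1 (chrX:20870046-20870165): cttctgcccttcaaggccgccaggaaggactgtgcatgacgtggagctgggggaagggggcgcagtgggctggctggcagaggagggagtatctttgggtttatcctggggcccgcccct

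Promoters of 300 bases, 250 before and 50 after the start, were given for 8 of the 10 genes; *Mmp2* and *Mmp9* had no entry. The site occurred in those of *Mmp13*, whose last base of the site stands 29 bases before the start, and *Mmp3*, where it stands 40 bases before the start. The promoter of a second, downstream start site of *Mmp12* (base 7347374) also held it, 38 bases before the start, whereas that of the first start site did not. It was not found in the promoters of *Mmp8*, *Mmp14*, *Timp1*, *Timp2* or *Timp3*. For comparison, 7.81% of 32851 mouse promoters of this length hold the site. These are matches of letters, and no measurement of binding was made.

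Libraries held 23129212 to 35819339 counts, with a median of 25733946. Levels are in CPM, counts scaled to a common library size after TMM normalization. *Casp8* measured 27.7 to 33.9 CPM in the 5 livers with an intact gene, 7.82 to 10.2 in *Casp8-/- Mlkl-/-* and 11.5 to 21.9 in *Casp8-/- Tnfr1-/-* livers. *Mlkl* measured 0.730 to 1.22 CPM in *Casp8-/- Mlkl-/-* livers, and *Tnfrsf1a*, the gene for TNFR1, 49.8 and 50.5 in *Tnfr1-/-* against 47.1 to 53.4 in WT livers. It was not lower with both genes deleted either, at 76.9, 76.0 and 425 CPM (log2 fold change 1.91 against WT, edgeR adjusted p = 0.0896, and 0.59 without replicate 3). Its whole-gene count was thus not reduced in the livers labelled as lacking TNFR1 and does not check these labels, and the part of the gene that was deleted is not given in the sources used here. A pair of livers stood apart. *Casp8-/- Tnfr1-/-* replicate 3 had *Xist* at 3409 CPM, against at most 0.570 in the other 10 livers, so it differed in sex, and it had a sum of 1886 CPM over 12 striated muscle genes, against 16.6 to 42.9. Its sum over 10 hemoglobin genes was 171803 CPM, against 34659 to 61046. *Casp8-/- Mlkl-/-* replicate 1 had a sum of 236653 CPM over 10 hepatocyte genes, against 52592 to 112358. TMM factors were 0.758 for the former liver, 0.812 for the latter and 1.01 to 1.09 for the others. The part of this pair of livers in the results was not tested. Fold changes of the 10 genes and the order of their levels are given without these livers where this moved a value or a call. Counts called of the lists are given without *Casp8-/- Tnfr1-/-* replicate 3, and without *Casp8-/- Mlkl-/-* replicate 1 for the neutrophil genes only. They can move further in fits not given here. Livers of a genotype were separate embryos whose litters the labels do not give, and p values measure the spread between these livers.

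The *Casp8-/- Tnfr1-/-* livers were set against each control genotype in one edgeR quasi-likelihood fit of all 11 livers, with a threshold of 0.05 on the adjusted p (Benjamini-Hochberg over 17243 tested genes). Of the 10 genes, 9 passed the filter on low counts, and *Mmp3* did not. *Mmp12* and *Mmp13*, with at most 9 counts in any control liver, passed it only through the *Casp8-/- Tnfr1-/-* livers. Counts out of these 9 genes include them. *Mmp12*, *Mmp13* and *Timp1* were called higher against WT, *Tnfr1-/-* and *Casp8-/- Mlkl-/-* livers alike, while *Mmp8* and *Mmp9* were called against WT livers only. None was called lower. These counts, 5 against WT, 3 against *Tnfr1-/-* and 3 against *Casp8-/- Mlkl-/-* livers, stand beside 5.10%, 2.05% and 1.54% of all tested genes called higher in these comparisons and 0.702%, 0.122% and 0.116% called lower. Without *Casp8-/- Tnfr1-/-* replicate 3 the counts were 4, 3 and 3, beside 7.28%, 4.46% and 2.83% of all tested genes called higher. All 3 comparisons use the same *Casp8-/- Tnfr1-/-* livers, so they are not independent.

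**Figure D1:**
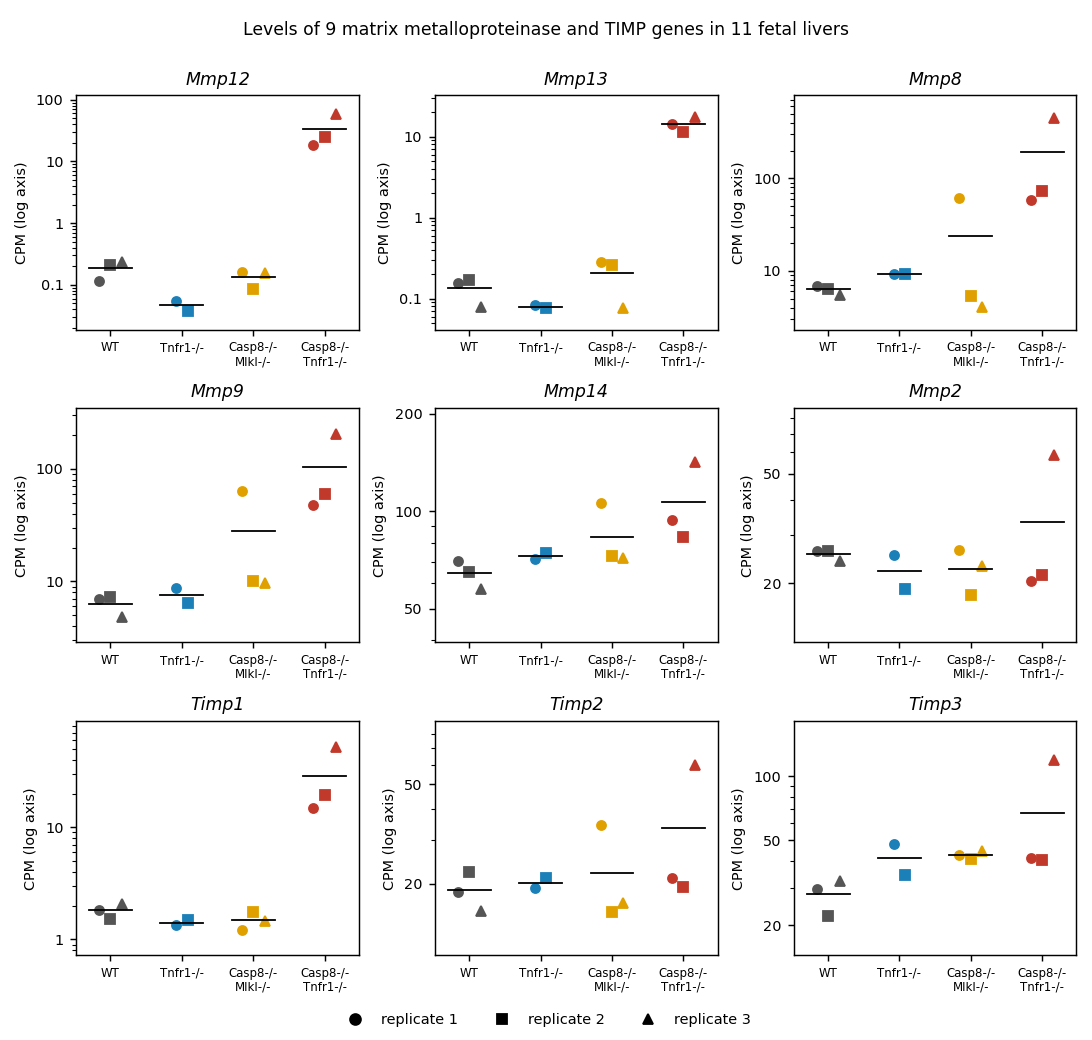
Level of each gene, in CPM on a log axis, in every liver; colours mark the 4 genotypes, symbols the replicate numbers, and the line the mean of a genotype. The *Casp8-/- Tnfr1-/-* livers lie above all other livers for *Mmp12*, *Mmp13* and *Timp1*, while *Casp8-/- Mlkl-/-* replicate 1 reaches them for *Mmp8* and *Mmp9*; *Mmp3*, with counts in 1 liver, is not drawn.

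The macrophage elastase gene *Mmp12* was nearly silent in all control livers. It gave 3, 5 and 6 counts in the WT livers (0.115, 0.210 and 0.237 CPM), 2 and 1 in the *Tnfr1-/-* livers (0.0547 and 0.0380 CPM) and 4, 3 and 4 in the *Casp8-/- Mlkl-/-* livers (0.162, 0.0872 and 0.153 CPM). The *Casp8-/- Tnfr1-/-* livers gave 606, 725 and 1025 counts, or 18.5, 25.0 and 58.4 CPM. The lowest of these lay far above the highest control liver, and replicate 3 was the highest of its genotype. Counts were also pooled over the livers of a genotype and divided by their pooled library sizes. In *Casp8-/- Tnfr1-/-* livers this pooled level was 159.5 times that of the WT livers (95% exact interval 94.9 to 292). It was 622 times that of the *Tnfr1-/-* livers (213 to 3019, on 3 counts) and 230.0 times that of the *Casp8-/- Mlkl-/-* livers (128 to 461). Such intervals allow for counting error alone, as reads were not marked by molecular identifiers. The fitted log2 fold change was 7.47 ± 0.548 (SE) against WT (edgeR adjusted p = 9.02e-05), 9.35 ± 0.750 against *Tnfr1-/-* (edgeR adjusted p = 2.70e-04) and 7.97 ± 0.564 against *Casp8-/- Mlkl-/-* livers (edgeR adjusted p = 1.68e-04). Without *Casp8-/- Tnfr1-/-* replicate 3 it was 6.84, 8.71 and 7.34, and *Mmp12* was called in all 3 comparisons whichever liver was left out.

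*Mmp13*, its neighbour in the cluster, was likewise nearly silent in the control livers and varied less among the *Casp8-/- Tnfr1-/-* livers. WT livers gave 4, 4 and 2 counts (0.154, 0.168 and 0.0789 CPM), *Tnfr1-/-* livers 3 and 2 (0.0821 and 0.0760 CPM) and *Casp8-/- Mlkl-/-* livers 7, 9 and 2 (0.284, 0.262 and 0.0764 CPM). The *Casp8-/- Tnfr1-/-* livers gave 472, 334 and 309 counts, or 14.4, 11.5 and 17.6 CPM. All 3 were above the other 8 livers, and replicate 3, which exceeded the other 2 livers of its genotype 2.69 times for *Mmp12*, exceeded them only 1.36 times for *Mmp13*. The ratio of pooled levels was 106 against WT (95% exact interval 57.3 to 221), 177 against *Tnfr1-/-* (75.5 to 545) and 66.5 against *Casp8-/- Mlkl-/-* livers (41.9 to 113). Its log2 fold change came to 6.72 ± 0.455 against WT (edgeR adjusted p = 6.43e-05), 7.43 ± 0.569 against *Tnfr1-/-* (edgeR adjusted p = 2.46e-04) and 6.08 ± 0.430 against *Casp8-/- Mlkl-/-* livers (edgeR adjusted p = 1.68e-04). It was called in every fit that left out 1 liver.

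**Figure D2:**
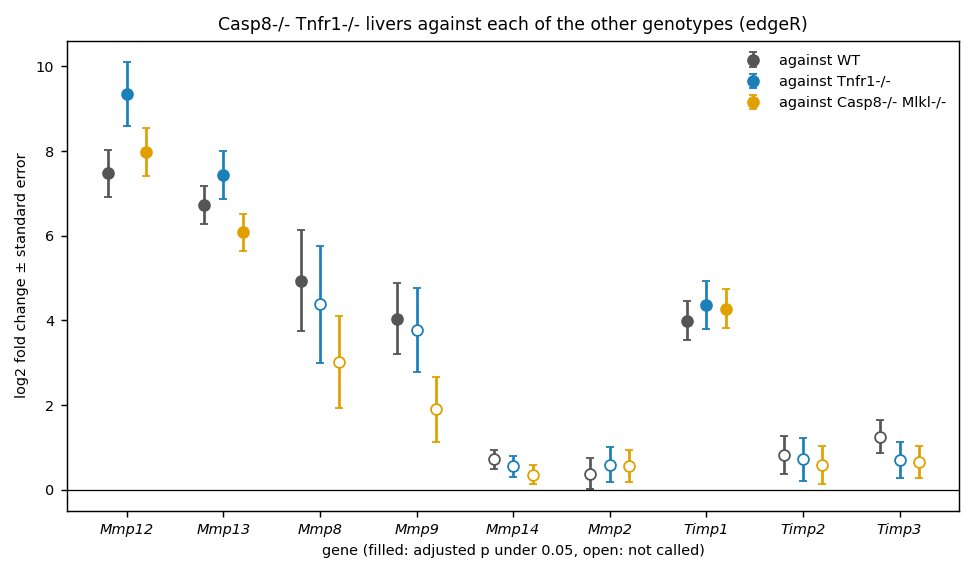
Log2 fold change, with its standard error, of each of the 9 tested genes in *Casp8-/- Tnfr1-/-* livers against WT (grey), *Tnfr1-/-* (blue) and *Casp8-/- Mlkl-/-* livers (yellow) in the edgeR fit; filled points were called at an adjusted p under 0.05. *Mmp12* ranges from 7.47 to 9.35, *Mmp13* from 6.08 to 7.43 and *Timp1* from 3.99 to 4.36, all filled, whereas *Mmp8* and *Mmp9* are filled against WT only and have wider bars.

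The neutrophil genes were expressed in every liver and were more variable. *Mmp8* measured 6.91, 6.41 and 5.52 CPM in WT, 9.33 and 9.12 in *Tnfr1-/-*, 62.0, 5.38 and 4.09 in *Casp8-/- Mlkl-/-* and 58.0, 72.9 and 447 in *Casp8-/- Tnfr1-/-* livers. The *Casp8-/- Tnfr1-/-* livers exceeded the WT and *Tnfr1-/-* livers, but *Casp8-/- Mlkl-/-* replicate 1 lay between replicates 1 and 2 of *Casp8-/- Tnfr1-/-*. In the fit, *Mmp8* had a log2 fold change of 4.94 ± 1.19 against WT (edgeR adjusted p = 0.0413), 4.38 ± 1.38 against *Tnfr1-/-* (edgeR adjusted p = 0.158) and 3.02 ± 1.09 against *Casp8-/- Mlkl-/-* livers (edgeR adjusted p = 0.235). The call against WT livers held in 5 of the 11 fits that left out 1 liver, with an edgeR adjusted p of up to 0.174. It was lost without *Casp8-/- Tnfr1-/-* replicate 3 (log2 fold change 3.39, edgeR adjusted p = 0.0583), without each of the WT livers in turn and without either *Tnfr1-/-* liver. Without *Casp8-/- Mlkl-/-* replicate 1 the difference from *Casp8-/- Mlkl-/-* livers was 5.34 and was called (edgeR adjusted p = 0.0239), as was that from *Tnfr1-/-* livers (edgeR adjusted p = 0.0336).

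*Mmp9* (ENSMUSG00000017737, chr2:164940780-164955850) followed the same livers. Its level was 6.95, 7.21 and 4.85 CPM in WT, 8.81 and 6.42 in *Tnfr1-/-*, 63.6, 10.2 and 9.75 in *Casp8-/- Mlkl-/-* and 48.1, 60.1 and 205 in *Casp8-/- Tnfr1-/-* livers. *Casp8-/- Mlkl-/-* replicate 1 was above 2 of the 3 *Casp8-/- Tnfr1-/-* livers, and the other 7 control livers were below all of them. In the fit, *Mmp9* had a log2 fold change of 4.04 ± 0.845 against WT (edgeR adjusted p = 0.0235), 3.77 ± 0.988 against *Tnfr1-/-* (edgeR adjusted p = 0.0939) and 1.90 ± 0.768 against *Casp8-/- Mlkl-/-* livers (edgeR adjusted p = 0.282). Leaving out any 1 of the WT livers ended the call against WT (edgeR adjusted p of up to 0.124). Without *Casp8-/- Mlkl-/-* replicate 1, which exceeded the mean of the other 2 livers of its genotype 6.37 times, the difference from *Casp8-/- Mlkl-/-* livers was 3.38 and was called (edgeR adjusted p = 0.0269), as was that from *Tnfr1-/-* livers (edgeR adjusted p = 0.0159).

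Some genes of the neutrophil lineage were called together with *Mmp8* and *Mmp9*, and others were not. Of 11 neutrophil genes, 6 were called higher against WT, 1 against *Tnfr1-/-* and 0 against *Casp8-/- Mlkl-/-* livers. Of all tested genes 5.10%, 2.05% and 1.54% were. The summed level of the 11 neutrophil genes, among them *S100a8* and *S100a9*, which encode the calprotectin subunits, was 1091 to 1569 CPM in WT, 1307 to 1341 in *Tnfr1-/-* and 5220.0 to 15142 in *Casp8-/- Tnfr1-/-* livers. It was 3389 CPM in *Casp8-/- Mlkl-/-* replicate 1 and 1261 and 1374 in the other 2 livers of that genotype, so the livers highest in *Mmp8* and *Mmp9* were those highest in this sum. Of the 11 genes, 6 lay above all 8 other livers in each *Casp8-/- Tnfr1-/-* liver, as did 7.43% of all tested genes. None of the 11 had 0 counts in all livers of a genotype. Against WT, *S100a8* had a log2 fold change of 3.31 (edgeR adjusted p = 0.0130) and *S100a9* of 3.53 (edgeR adjusted p = 0.0182), or 2.44 and 2.60 without replicate 3. The 5 genes not called against WT, named after their values were seen, were *Retnlg* (5.64, edgeR adjusted p = 0.0541), *Camp* (1.82, edgeR adjusted p = 0.0676), *Ly6g* (1.88, edgeR adjusted p = 0.207) and the primary granule enzymes *Prtn3* (0.91, edgeR adjusted p = 0.308) and *Mpo* (0.39, edgeR adjusted p = 0.730). *Mpo*, which encodes myeloperoxidase, measured 672 and 819 CPM in *Casp8-/- Tnfr1-/-* replicates 1 and 2 but 53.4 in replicate 3, against 336 to 599.7 in the control livers, whereas *Mmp8* was highest in replicate 3. Without replicate 3, 8, 4 and 2 of the 11 were called in the 3 comparisons, beside 7.28%, 4.46% and 2.83% of all tested genes called higher. With *Casp8-/- Mlkl-/-* replicate 1 left out instead, the counts were 9, 6 and 8, beside 7.29%, 3.62% and 3.03% of all tested genes. In RNA of a whole liver, a change in the number of cells of a type and a change in RNA per cell cannot be told apart, and the part of neutrophil numbers in the levels of *Mmp8* and *Mmp9* was not tested.

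As a sum, the 13 macrophage genes did not rise with *Mmp12* and *Mmp13*. The summed level was 572 to 729 CPM in WT, 653 to 694 in *Tnfr1-/-*, 722 to 1729 in *Casp8-/- Mlkl-/-* and 409 to 570.3 in *Casp8-/- Tnfr1-/-* livers, so that the livers with the most *Mmp12* were those with the lowest sum. *Adgre1*, which encodes the macrophage surface protein F4/80, measured 40.2, 38.5 and 13.1 CPM in *Casp8-/- Tnfr1-/-* against 46.3 to 57.4 in WT and 100.2 to 170.1 in *Casp8-/- Mlkl-/-* livers. *Cd68*, a lysosomal protein of macrophages, measured 41.2, 40.7 and 47.8 CPM in *Casp8-/- Tnfr1-/-* livers against 18.3 to 27.3 in WT livers. Against WT 1 of the 13 genes was called higher (*Cd68*) and 2 lower, against *Tnfr1-/-* livers 0 in either direction, and against *Casp8-/- Mlkl-/-* livers 0 higher and 3 lower. Without *Casp8-/- Tnfr1-/-* replicate 3 the calls were 2 higher and 0 lower against WT and 1 higher and 0 lower against *Tnfr1-/-*. Against *Casp8-/- Mlkl-/-* livers they were then 1 higher and 3 lower. In that fit 7.28%, 4.46% and 2.83% of all tested genes were called higher and 2.55%, 0.728% and 0.335% lower. None of the 13 genes had 0 counts in all livers of a genotype. Cartilage, bone and osteoclasts are other sites of *Mmp13*, and 10 genes of these tissues did not move together. Their sum, 145 to 267 CPM in *Casp8-/- Tnfr1-/-* and 275 to 324 in the control livers, was mostly *Acp5*, the acid phosphatase of osteoclasts and macrophages, which was called lower against WT (log2 fold change -0.84, edgeR adjusted p = 0.0332). The 5 tested had a median log2 fold change of 2.06 against WT. *Col2a1*, the main collagen of cartilage, measured 39.4, 0.138 and 4.96 CPM in *Casp8-/- Tnfr1-/-* and at most 0.494 in the control livers (log2 fold change 6.09 against WT, edgeR adjusted p = 0.0589, and 6.51 without replicate 3, edgeR adjusted p = 0.0350). *Mmp13* measured 11.5 CPM in replicate 2, where *Col2a1* was within the range of the control livers. Both *Acp5* and *Col2a1* were named after their values were seen.

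**Figure D3:**
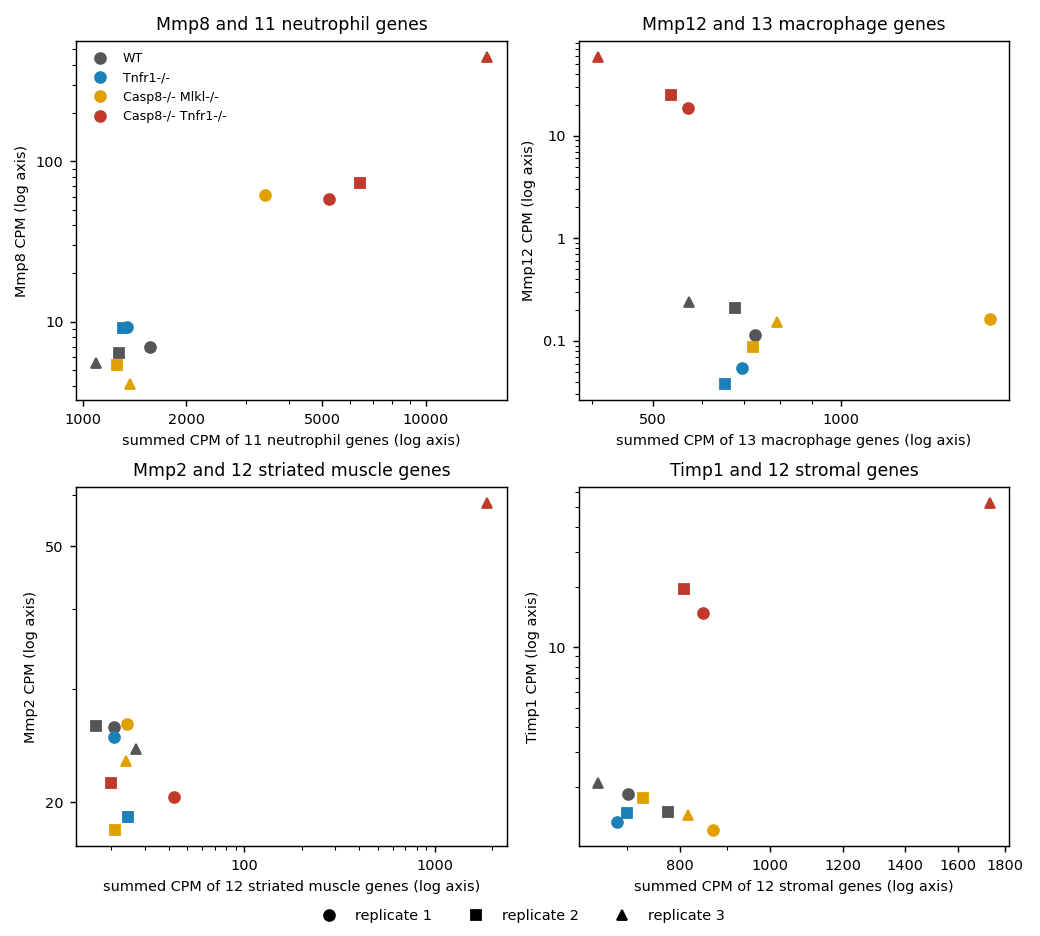
Level of a metalloproteinase or TIMP gene in CPM (vertical, log axis) against the summed CPM of marker genes (horizontal, log axis), 1 point per liver; colours mark genotypes and symbols replicate numbers. *Mmp8* is high in the livers with a high neutrophil sum, *Mmp12* is high in livers with macrophage sums of 409 to 570.3 CPM, and *Casp8-/- Tnfr1-/-* replicate 3 stands alone in the plots of *Mmp2* against striated muscle and *Timp1* against stromal genes.

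None of the stromal genes was called. *Mmp14* (ENSMUSG00000000957, chr14:54431612-54445364) measured 70.4, 65.1 and 57.7 CPM in WT, 71.1 and 74.3 in *Tnfr1-/-*, 106, 72.9 and 71.7 in *Casp8-/- Mlkl-/-* and 93.8, 83.6 and 142 in *Casp8-/- Tnfr1-/-* livers. All *Casp8-/- Tnfr1-/-* livers were above the WT and *Tnfr1-/-* livers, and *Casp8-/- Mlkl-/-* replicate 1 was again among them. For *Mmp14* the fit gave a log2 fold change of 0.72 ± 0.224 against WT (edgeR adjusted p = 0.0886), 0.55 against *Tnfr1-/-* (edgeR adjusted p = 0.318) and 0.35 against *Casp8-/- Mlkl-/-* livers (edgeR adjusted p = 0.477), none of them called. When both livers that stood apart were left out, *Mmp14* was called in all 3 comparisons, with log2 fold changes of 0.48, 0.30 and 0.31 (edgeR adjusted p = 5.02e-04, 0.0255 and 0.0284), in a fit that called 17.8% and 13.9% of all tested genes higher against WT and *Tnfr1-/-* livers and 2032 of 16958 against *Casp8-/- Mlkl-/-* livers.

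*Mmp2* (ENSMUSG00000031740, chr8:92827291-92853420) was at 26.2, 26.3 and 24.2 CPM in WT, 25.3 and 19.0 in *Tnfr1-/-*, 26.5, 18.1 and 23.2 in *Casp8-/- Mlkl-/-* and 20.4, 21.4 and 58.3 in *Casp8-/- Tnfr1-/-* livers. Only *Casp8-/- Tnfr1-/-* replicate 3 left the range of the control livers, and the other 2 livers of that genotype were below every WT liver. For *Mmp2* the fit gave a log2 fold change of 0.38 ± 0.367 against WT (edgeR adjusted p = 0.524), with 0.59 and 0.56 against the other 2 genotypes, and without replicate 3 it was -0.28, -0.08 and -0.11, none called. The stromelysin gene *Mmp3* had 5 counts (0.285 CPM) in *Casp8-/- Tnfr1-/-* replicate 3 and 0 in the other 10 livers, where 3 counts, the limit that a count of 0 allows, would have been 0.0821 to 0.126 CPM. No difference in *Mmp3* was detectable at this depth. The 12 stromal marker genes summed to 652 to 776 CPM in WT, 683 to 701 in *Tnfr1-/-*, 729 to 868 in *Casp8-/- Mlkl-/-* and 847, 808 and 1732 in *Casp8-/- Tnfr1-/-* livers, with replicate 3 the highest. Of the 12, 1 was called higher in each of the 3 comparisons. Without replicate 3, 3, 2 and 2 were, beside 7.28%, 4.46% and 2.83% of all tested genes. In all livers, 6 of the 12 lay above all 8 others in each *Casp8-/- Tnfr1-/-* liver, as did 7.43% of all tested genes. None of the 12 had 0 counts in all livers of a genotype.

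Of the inhibitors, only *Timp1* was called. *Timp1* (ENSMUSG00000001131, chrX:20870166-20874735) measured 1.84, 1.51 and 2.09 CPM in WT, 1.34 and 1.48 in *Tnfr1-/-*, 1.22, 1.77 and 1.45 in *Casp8-/- Mlkl-/-* and 14.9, 19.5 and 52.5 in *Casp8-/- Tnfr1-/-* livers. No control liver came near the *Casp8-/- Tnfr1-/-* livers, and unlike *Mmp8* and *Mmp9*, *Timp1* was not raised in *Casp8-/- Mlkl-/-* replicate 1, which had the lowest value of all 11 livers. *Timp1* rose by a log2 fold change of 3.99 ± 0.465 over WT (edgeR adjusted p = 0.00124), 4.36 ± 0.563 over *Tnfr1-/-* (edgeR adjusted p = 0.00396) and 4.28 ± 0.471 over *Casp8-/- Mlkl-/-* livers (edgeR adjusted p = 0.00225). Without *Casp8-/- Tnfr1-/-* replicate 3 it was 3.25, 3.61 and 3.53, and called each time. The call against *Tnfr1-/-* livers ended when either of the 2 *Tnfr1-/-* livers was left out (edgeR adjusted p = 0.105 without replicate 1 and 0.0869 without replicate 2), and with only the 2 genotypes of a comparison in the fit *Timp1* was called against WT but not against *Tnfr1-/-* (edgeR adjusted p = 0.135) or *Casp8-/- Mlkl-/-* livers (edgeR adjusted p = 0.0642). *Timp1* lies within *Syn1*, a gene of the opposite strand with at most 31 counts in a liver, and whether reads were counted by strand is not given in the sources used here.

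*Timp2* (ENSMUSG00000017466, chr11:118301069-118355740, minus strand), whose product also takes part in the activation of gelatinase A, measured 18.6, 22.3 and 15.6 CPM in WT, 19.3 and 21.2 in *Tnfr1-/-*, 34.3, 15.55 and 16.8 in *Casp8-/- Mlkl-/-* and 21.1, 19.4 and 59.9 in *Casp8-/- Tnfr1-/-* livers. Apart from the pair of livers that stood apart, no value was above 22.3 CPM and the genotypes overlapped. *Timp3* (ENSMUSG00000020044, chr10:86300372-86349506), the TIMP that binds to the matrix, measured 29.7, 22.0 and 32.4 CPM in WT, 48.2 and 34.3 in *Tnfr1-/-*, 42.9, 41.0 and 44.5 in *Casp8-/- Mlkl-/-* and 41.5, 40.5 and 119 in *Casp8-/- Tnfr1-/-* livers. Its lowest values were those of the WT livers, and the other genotypes overlapped except for replicate 3. The log2 fold change against WT was 0.83 for *Timp2* (edgeR adjusted p = 0.274) and 1.25 for *Timp3* (edgeR adjusted p = 0.0877), and neither was called in any of the 3 comparisons. Without replicate 3 that of *Timp2* was 0.11 and that of *Timp3* 0.55, and without both livers that stood apart *Timp3* was called against WT at 0.56 (edgeR adjusted p = 0.00924).

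The 3 *Casp8-/- Tnfr1-/-* livers were also set against all 8 others in an exact permutation test (two-sided, on log2 CPM, 165 splits), which gave p = 0.00606, the smallest it can give, for each of *Mmp12*, *Mmp13* and *Timp1*. These were the 3 of the 9 tested genes whose *Casp8-/- Tnfr1-/-* livers all lay above the other 8; of all tested genes, 7.43% did. The exact permutation p was 0.0121 for *Mmp8*, 0.0182 for *Mmp9* and 0.0242 for *Mmp14*, whose livers overlapped through *Casp8-/- Mlkl-/-* replicate 1, and without that liver 6 of the 9 separated, as did 13.3% of all tested genes. It was 0.0970 for *Timp3*, 0.115 for *Timp2* and 0.321 for *Mmp2*.

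The control genotypes differed less. Between *Casp8-/- Mlkl-/-* and WT livers, none of the 9 genes was called by edgeR (0.00580% of all genes were, in either direction), by limma-voom or by DESeq2, and 1, *Mmp9*, had an unadjusted edgeR p under 0.05 (log2 fold change 2.13). Its 3 *Casp8-/- Mlkl-/-* livers were all above the WT livers. The fold change of *Mmp8* in this comparison, 1.92, came from replicate 1 alone and was -0.40 without it. Without both livers that stood apart, *Mmp9* (0.66, edgeR adjusted p = 0.0370) and *Timp3* (0.61, edgeR adjusted p = 0.0258) were called between *Casp8-/- Mlkl-/-* and WT livers, as were 6.40% of all tested genes. Between *Tnfr1-/-* and WT livers none of the 9 was called by any of these tools (0% of all genes by edgeR) and none had an unadjusted edgeR p under 0.05. In fits of only the 2 genotypes compared, 7 genes passed the filter in each of these comparisons of controls, and 0 were called. In the fit of all livers, log2 fold changes between *Tnfr1-/-* and WT livers ran from -1.88 for *Mmp12*, on 14 WT and 3 *Tnfr1-/-* counts in sum, to 0.56 for *Timp3*.

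Levels of different genes were compared per length, as RPKM, which divides the CPM by the length of the gene in kilobases. In WT livers the order was *Mmp14* (15.4 ± 1.53 RPKM, SD, n = 3), *Mmp2* (8.31 ± 0.386), *Timp3* (5.94 ± 1.14), *Timp2* (5.08 ± 0.903), *Mmp8* (2.59 ± 0.291), *Timp1* (2.04 ± 0.329), *Mmp9* (1.53 to 2.27), *Mmp13* (0.0499 ± 0.0179), *Mmp12* (0.0470 ± 0.0160) and *Mmp3* (0). *Timp3* and *Timp2*, the 3 genes from *Mmp8* to *Mmp9*, and *Mmp13* and *Mmp12* overlapped as neighbours in this order, and the other neighbours did not. In *Casp8-/- Tnfr1-/-* livers *Mmp8* (79.4 ± 90.9 RPKM, SD, n = 3), *Mmp9* (32.9 ± 27.5) and *Timp1* (32.6 ± 23.1) stood before *Mmp14* (25.4 ± 7.46), and *Mmp12* (8.52 ± 5.38) and *Mmp13* (5.43 ± 1.14) came close to *Timp2* (9.02 ± 6.17). Every neighbouring pair down to *Mmp13* overlapped in its range there. This order rests on replicate 3. In the other 2 livers *Mmp8* averaged 27.0 RPKM and was followed by *Mmp14* (21.2), *Timp1* (19.4) and *Mmp9* (17.1), with *Timp2* (5.46), *Mmp12* (5.45) and *Mmp13* (4.84) below *Timp3* (8.68) and *Mmp2* (6.79).

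Summed over the 7 metalloproteinases, the level per length was 25.6 to 31.9 RPKM in the WT and *Tnfr1-/-* livers, 28.9 and 29.5 in *Casp8-/- Mlkl-/-* replicates 2 and 3 and 79.8 in replicate 1, and 78.2, 86.5 and 323 in *Casp8-/- Tnfr1-/-* livers. The makeup of these sums differed between *Casp8-/- Mlkl-/-* replicate 1 and the *Casp8-/- Tnfr1-/-* livers. *Mmp8* and *Mmp9* held 57.2% of the sum in the former and 50.0%, 56.6% and 77.0% in the latter, against 14.9 to 20.8% elsewhere. *Mmp12* and *Mmp13* held 0.184% in *Casp8-/- Mlkl-/-* replicate 1, at most 0.415% in any control liver, and 12.8%, 12.2% and 6.58% in *Casp8-/- Tnfr1-/-* livers. *Mmp14* gave 53.3 to 60.4% of the sum in the 7 other control livers and 10.5 to 28.7% in *Casp8-/- Tnfr1-/-* livers. Summed over the 3 TIMPs, it was 12.4 to 19.7 RPKM in the control livers but 31.3, 35.8 and 101 in *Casp8-/- Tnfr1-/-* livers. The ratio of metalloproteinase to TIMP RNA per length was 1.89 to 2.35 in the WT and *Tnfr1-/-* livers, 4.05, 1.94 and 1.89 in *Casp8-/- Mlkl-/-* livers and 2.50, 2.42 and 3.21 in *Casp8-/- Tnfr1-/-* livers. These are sums of RNA and say nothing of active enzyme.

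**Figure D4:**
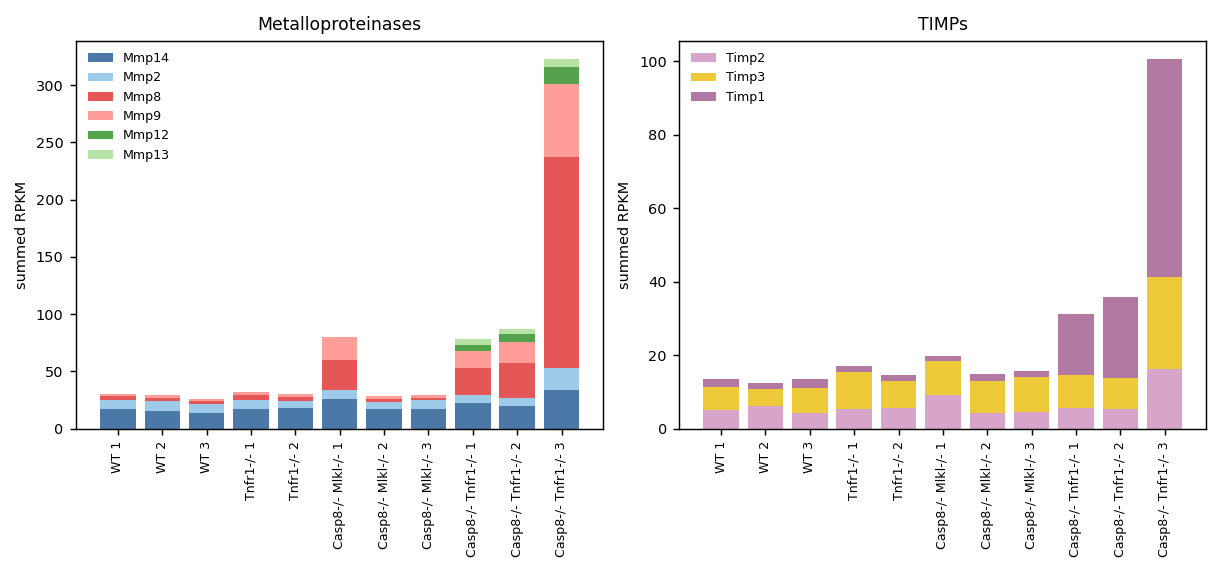
Stacked levels per length, in RPKM on linear axes from 0, of 6 metalloproteinases (left) and 3 TIMPs (right) in each of the 11 livers; *Mmp3* is too low to be seen and is left out. *Mmp14* is the largest layer in most control livers, *Mmp8* and *Mmp9* widen in *Casp8-/- Mlkl-/-* replicate 1 and in the *Casp8-/- Tnfr1-/-* livers, and *Mmp12*, *Mmp13* and *Timp1* widen in the *Casp8-/- Tnfr1-/-* livers only.

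The other genes of the pathway were taken as lists. Of all tested genes, 5.10%, 2.05% and 1.54% were called higher against WT, *Tnfr1-/-* and *Casp8-/- Mlkl-/-* livers. Of 16 other metalloproteinase genes 10 were tested, and 1 was called higher against WT and 0 in the other 2 comparisons. It was *Mmp25*, a membrane-bound metalloproteinase of leukocytes, at 1.27, 0.545 and 0.907 CPM in WT and 4.79, 6.57 and 16.8 in *Casp8-/- Tnfr1-/-* livers (log2 fold change 3.36, edgeR adjusted p = 0.0142, and 2.64 without replicate 3), with 3.93 CPM in *Casp8-/- Mlkl-/-* replicate 1. The median log2 fold change of the 10 against WT was 0.51, beside -0.00 over all genes. Of 10 other protease inhibitors 9 were tested, and the 1 called, *Cstb*, encodes the cathepsin inhibitor cystatin B (log2 fold change 1.09 against WT, edgeR adjusted p = 0.0191, and 1.37 against *Tnfr1-/-*, edgeR adjusted p = 0.0238); the median against WT was 0.68.

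Activators and partners of the metalloproteinases had the most calls, with 6 of 14 higher against WT and 4 in each of the other 2 comparisons, and a median log2 fold change of 0.90 against WT. *Cd44*, whose product holds gelatinase B at the cell surface, measured 154, 155 and 156 CPM in *Casp8-/- Tnfr1-/-*, 103, 109.9 and 101 in *Casp8-/- Mlkl-/-* and 82.9 to 85.6 in the WT and *Tnfr1-/-* livers. It was called in all 3 comparisons (log2 fold change 0.89 against WT, edgeR adjusted p = 0.00118, and 0.57 against *Casp8-/- Mlkl-/-*, edgeR adjusted p = 0.0272), and *Casp8-/- Tnfr1-/-* replicate 3 did not stand apart. *Plau*, the urokinase that generates plasmin, an activator of proenzymes, measured 18.1, 18.0 and 15.7 CPM against 6.80 to 9.69 in all control livers and was also called in all 3 (log2 fold change 1.11 against WT, edgeR adjusted p = 0.00839). *Lcn2*, which encodes the lipocalin that binds gelatinase B, measured 1100.3, 1217 and 3249 CPM against 46.9 to 78.2 in the control livers other than *Casp8-/- Mlkl-/-* replicate 1, which had 267 (log2 fold change 4.87 against WT, edgeR adjusted p = 0.00687, and 4.20 without replicate 3). *Itgam*, the integrin CD11b of neutrophils and macrophages, had a log2 fold change of 2.92 against WT (edgeR adjusted p = 0.0116) and was not called against *Casp8-/- Mlkl-/-* livers (2.35, edgeR adjusted p = 0.0568).

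Among 12 related proteases of the ADAM and ADAMTS families, 4 were called higher against WT, 1 against *Tnfr1-/-* and 0 against *Casp8-/- Mlkl-/-* livers. Their median log2 fold change against WT was 1.18. *Adam8*, a membrane protease of leukocytes, measured 23.6, 27.6 and 291 CPM in *Casp8-/- Tnfr1-/-* livers, 11.3 in *Casp8-/- Mlkl-/-* replicate 1 and 3.17 to 4.08 in the others (log2 fold change 5.04 against WT, edgeR adjusted p = 0.0212). Without replicate 3 that of *Adam8* was 2.89 and was called (edgeR adjusted p = 0.00625). *Adamts4*, an aggrecanase, had a log2 fold change of 3.34 (edgeR adjusted p = 0.0167, and 2.24 without replicate 3), *Adam15* was 2.82-fold higher (edgeR adjusted p = 0.0185) and *Adam12* 1.62-fold higher (edgeR adjusted p = 0.0466) than in WT livers. Of 6 cathepsins 1 was called against WT and *Tnfr1-/-* livers, *Ctsz* (log2 fold change 0.87 against WT, edgeR adjusted p = 0.0192; list median 0.67). Of 12 matrix substrates 1 was called in each comparison. This was *Vcan*, the proteoglycan versican, at 59.6, 51.0 and 121 CPM in *Casp8-/- Tnfr1-/-* and 9.35 to 19.6 in the control livers (log2 fold change 2.38 against WT, edgeR adjusted p = 0.00701; list median 1.30). No gene of these 6 lists was called lower in any of the 3 comparisons. Without *Casp8-/- Tnfr1-/-* replicate 3, the calls against WT, *Tnfr1-/-* and *Casp8-/- Mlkl-/-* livers were 9, 7 and 5 of the 14 activators and partners and 6, 2 and 2 of the 12 ADAM and ADAMTS genes. They were 2, 1 and 1 of the 12 substrates and 2, 1 and 0 of the 6 cathepsins. Of the other metalloproteinases 1, 1 and 0 were called, and of the other inhibitors likewise 1, 1 and 0. In that fit 7.28%, 4.46% and 2.83% of all tested genes were called higher in these comparisons. The median log2 fold change against WT then was 0.48 for the ADAM and ADAMTS genes, 0.28 for the substrates, 0.28 for the other metalloproteinases, 0.49 for the other inhibitors, 0.19 for the cathepsins and 0.93 for the activators and partners.

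Profiles were last compared between genes. The measure of likeness was the root mean square difference of log2 CPM over the 11 livers after each gene was centred on its own mean, where a smaller value means a closer profile. The gene closest to *Mmp12* of all tested was *Mmp13* (0.804), followed by *Rgs4* (0.860), while *Mmp13* was closer to the chemokine genes *Ccl7* (0.533) and *Ccl2* (0.570). *Mmp8* was closest to *Asprv1* (0.333) and *Stfa2* (0.361), and *Mmp9* to *Ifnlr1* (0.336) and *Padi4* (0.396). *Timp1* was closest to *Sprr2b* (0.482) and *Egr2* (0.526). The genes that varied least had the nearest neighbours, *Tgfbr2* (0.0787) and *Ano10* (0.0868) for *Mmp14*, *Zfp691* (0.115) and *Gabarap* (0.124) for *Mmp2*, *Pqlc2* and *Ube2e2* (0.129 each) for *Timp2* and *Gm38190* (0.165) and *Vwf* (0.184) for *Timp3*. These values describe the same 11 livers and share their normalization.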

How the data were processed

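Reads were single-end; the study's methods and the labels name different TruSeq kits and sequencers. The authors aligned reads to GRCm38 (mm10) with GSNAP, as the methods and the submitters' processing notes say, and used uniquely mapped reads. The counting tool, annotation release and use of strand are not given in the sources used here. The deposited values are raw counts per gene on exons, with the gene's width in bases and RPKM values that the authors computed; the deposited RPKM were not used, and RPKM were recomputed from counts, TMM library sizes and widths.

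Gene names and positions are from GENCODE M21 (52489 of 52636 identifiers). Counts were tested in R 4.3.3 with edgeR 4.0.16 (filterByExpr minimum count 10, TMM, glmQLFit and glmQLFTest, genotype as only factor). The common biological coefficient of variation was 33.3%. Log2 CPM used a prior count of 2. Pairs of livers differed by a chi-square of at least 6.45 per degree of freedom, so none was counted as the same library. The methods were tested on simulated data. limma 3.58.1, DESeq2 1.42.0 and other filters, scalings and sets of livers were alternatives; leaving out both livers that stood apart, and giving the lists and the order of levels without one of them, was chosen after seeing the data. The 10 genes, the lists and the tests were chosen with earlier results of these data known. Named from the lists were genes called in at least 1 comparison of *Casp8-/- Tnfr1-/-* livers, at most 4 per list with the smallest adjusted p against WT, the first 2 genes of a marker list, the targeted genes and the 2 closest profiles per gene; *Xist* was named after its values were seen. A search of protein motifs was planned and not made, since no protein sequences were used here.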

Additional observations from a re-analysis of the deposited data

How the results depend on the processing

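Against WT, *Tnfr1-/-* and *Casp8-/- Mlkl-/-* livers, 5, 3 and 3 of the 9 tested genes were called higher in *Casp8-/- Tnfr1-/-* livers. *Mmp12* and *Mmp13* were called in all 3 comparisons under every alternative tried, and *Timp1* under all but those given with it. Leaving out 1 liver at a time gave 3 to 7, 2 to 5 and 3 to 5 calls, 0 calls between *Casp8-/- Mlkl-/-* and WT livers, and 3 to 6 genes above all other livers. In these fits 1.57% to 7.61%, 0.158% to 4.46% and 0.415% to 3.03% of all tested genes were called higher in the 3 comparisons. DESeq2's Wald test called 5 against *Tnfr1-/-* livers (6.42% of all genes), and voom with quality weights called 6 against *Tnfr1-/-* (14.6%), 6 against *Casp8-/- Mlkl-/-* livers (1894 of 17243) and, between *Casp8-/- Mlkl-/-* and WT livers, 1 (6.04% in either direction). Without both livers that stood apart these 3 counts were 6, 6 and 2, beside 13.9%, 2032 of 16958 and 6.40% of all genes, so that calls rose over all genes as well. The causes were not tested.

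Same-numbered livers did not deviate together: 4 of 15 pairs had a correlation over 0.1 (range -0.297 to 0.275). With the replicate number as a block, 3 genes were called against WT (3.09% of all genes), *Mmp8* (adjusted p = 0.0971) and *Mmp9* (0.0560) being lost, and no other count changed.

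Changes of sign concerned fold changes that were not called. With quality weights *Mmp2* had -0.30, -0.09 and -0.03 against WT, *Tnfr1-/-* and *Casp8-/- Mlkl-/-* livers and *Timp3* -0.06 against *Casp8-/- Mlkl-/-*, while *Mmp13*, *Mmp8* and *Timp2* had -0.18, -0.41 and -0.21 between *Casp8-/- Mlkl-/-* and WT livers. With 1 liver left out, *Mmp2* ranged from -0.28 to 0.64 against WT, -0.08 to 0.85 against *Tnfr1-/-* and -0.11 to 0.83 against *Casp8-/- Mlkl-/-* livers, *Timp3* from -0.01 to 0.96 against *Tnfr1-/-* and -0.06 to 0.92 against *Casp8-/- Mlkl-/-*, and *Timp2* from -0.13 to 1.05 against *Casp8-/- Mlkl-/-* livers, each lowest without *Casp8-/- Tnfr1-/-* replicate 3. Without both livers, *Mmp2* had -0.28 and -0.07 against WT and *Tnfr1-/-*, *Timp3* -0.05 against *Casp8-/- Mlkl-/-*, and *Mmp8* and *Timp2* -0.39 and -0.22 between *Casp8-/- Mlkl-/-* and WT livers. With 1 liver left out, these last ranged from -0.40 to 2.41 and -0.22 to 0.43, lowest without *Casp8-/- Mlkl-/-* replicate 1, and *Timp2* between *Tnfr1-/-* and WT livers from -0.01, without WT replicate 3, to 0.24. With 2 or 3 livers a genotype, smaller fold changes, such as those of *Mmp14* and *Timp3*, passed or missed the threshold depending on the fit, and counts of 1 to 9 a liver limit the precision of *Mmp12* and *Mmp13* among the control genotypes.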

Other observations

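Genes outside the rule for naming, chosen after their values were seen, set *Casp8-/- Tnfr1-/-* replicate 3 apart within the metalloproteinase family. *Mmp19* measured 17.4 CPM in that liver against 58.0 to 74.4 in the other 10. *Mmp23* was at 18.7 CPM there and at 2.35 to 3.85 elsewhere, and *Mmp10*, which lies in the chromosome 9 cluster beside *Mmp3*, had 8 counts there and 0 in the other 10 livers. Sums over the 16 other metalloproteinase genes, 77.4 to 106 CPM in all 11 livers, hide these shifts.

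*Clec4f*, a lectin of Kupffer cells and also named after its values were seen, measured 10.5 to 13.9 CPM in the WT and *Tnfr1-/-* livers, 5.47, 0.203 and 0.726 in *Casp8-/- Mlkl-/-* and 1.16, 0.551 and 0.114 in *Casp8-/- Tnfr1-/-* livers. It was thus low in 5 of the 6 livers without caspase-8, whereas *Mmp12* was high only in the 3 that lacked TNFR1 and kept MLKL. The genotypes without caspase-8 differ in both TNFR1 and MLKL, whose parts cannot be told apart here.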
